A study of Mus musculus with 4 samples.

Results

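Polysome RNA was compared with total RNA in wild-type mouse embryonic fibroblasts, connective tissue cells grown in culture from embryos. The comparison rests on 2 of the 4 arrays, 1 for each RNA, and covers 7179 of the 12393 genes that the annotation names on the array. Each gene is given by 1 probe set, the one of highest mean over the 4 arrays, and was counted as measured where its highest value reached the median of all values, 7.53 on the log2 scale, called the floor here. The series asks, by its design, how deletion of Npm1 alters which RNAs are held on ribosomes, and the wild-type pair carries no deletion by its label. Npm1 encodes nucleophosmin, an RNA-binding protein of the nucleolus that chaperones ribosome assembly and export.

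All 4 groups are fibroblasts whose strain the labels spell C57/BJ6. The wild-type groups carry the genotype Npm1+/+ and the groups set beside them Npm1+/-, called heterozygote, and each genotype has 1 array of total RNA and 1 of ribosome-bound RNA, called polysome RNA. No treatment, age or passage is given in the labels, and neither is whether the total and polysome RNA of a genotype came from the same cells or how many embryos contributed. A single array stood on each side, so every difference is between these libraries, has no replicate error and carries no p-value. Npm1 itself did not separate the genotype labels: in total RNA it read 11.91 under the wild-type and 11.96 under the heterozygote label, and in polysome RNA 12.93 and 12.84. Whether its probe sets lie within the deleted stretch is not known here, so genotypes are named by label throughout.

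Polysomes are mRNAs carrying several ribosomes at once, and they sediment faster through a sucrose gradient than free mRNA or mRNA with a single ribosome. An mRNA that is well loaded with ribosomes takes a larger share of the polysome RNA than of the total RNA, and a stored, poorly initiated or nuclear RNA a smaller one. Some known means of holding particular mRNAs off ribosomes act ahead of the coding sequence. Among them are the pyrimidine-rich start of ribosomal protein mRNAs, upstream reading frames and some iron responsive elements. Because an array reports shares of the RNA put on it, values rank genes against one another and do not give the number of ribosomes on an mRNA. The values are hybridisation signals. Levels were set against the floor and ranked by brightness, but not read as amounts of RNA of different genes.

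The start sequences of 6 mRNAs are given first, because 2 of these genes, Cap1 and Rps6, passed 2-fold in opposite directions although both transcripts start with the same kind of sequence. Cap1 stayed past 2-fold under all 8 alternatives that change the values, whereas Rps6 was close to the threshold and lost it under 6 of the 8. Some of these alternatives lower every gene by the same amount. A lower gene could only keep its call there, and only a higher gene could lose it. The sequences come from RefSeq, build GRCm38.p6, each as the 15 bases before and the 15 bases from the annotated transcript start. Capitals mark the unbroken run of C and T that begins at the start.
Cap1: gttttcctcccccacCTCCCTTggaggcgg
Rps27: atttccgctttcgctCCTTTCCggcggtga
Rplp2: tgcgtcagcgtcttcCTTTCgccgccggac
Rps18: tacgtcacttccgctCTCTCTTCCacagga
Rpl38: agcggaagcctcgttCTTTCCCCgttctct
Rps6: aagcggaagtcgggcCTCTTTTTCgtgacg
These windows lie at chr4:122886062-122886091 on the minus strand (Cap1), chr3:90213634-90213663, minus (Rps27), chr7:141447636-141447665, plus (Rplp2), chr17:33955651-33955680, minus (Rps18), chr11:114668565-114668594, plus (Rpl38) and chr4:86857353-86857382, minus (Rps6). In each, the first 15 bases are upstream of the gene and the rest belong to its first exon. The polysome minus total difference was -3.19 for Cap1, -0.14 for Rps27, 0.05 for Rplp2, 0.20 for Rps18, 0.21 for Rpl38 and 1.11 for Rps6, all in log2 units. Other Rps18 probe sets that reached the floor gave -0.41 to 0.16.

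The libraries were alike for most genes. The array medians over all probe sets were 7.47 in total and 7.59 in polysome RNA, and the median gene was 0.14 higher in polysome RNA (1.11-fold), so the list medians below are read against 0.14. The difference lay within 1.5-fold for 94.8% of the 7179 genes, its interquartile range was 0.00 to 0.28 and its SD over genes was 0.28. For 2700 genes the polysome minus total value of 1 probe set was taken from that of another of the same gene. The SD of the result was 0.28, which holds the spread of both probe sets and is not the same measure. All 14 fibroblast markers lay above the floor on all 4 arrays, with a mean level of 11.8 in total and 12.0 in polysome RNA. The Y-linked gene Eif2s3y read 8.63 in total and 9.07 in polysome RNA and Xist, the non-coding RNA of the inactive X chromosome, 6.09 and 5.95, so neither sex-linked gene separated the libraries by 2-fold. As the RNA comes from whole cultures, more cells of a type cannot be told apart from more RNA per cell.

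A difference of 2-fold or more was seen for 66 genes (0.919% of those measured), of which 38 were higher in polysome RNA (0.529%) and 28 lower (0.39%). At 1.5-fold or more there were 374 (5.21%), 262 of them higher (3.65%) and 112 lower (1.56%). Relative to the median gene 70 genes passed 2-fold (0.975%), 27 higher (0.376%) and 43 lower (0.599%), so the share of higher genes among those past 2-fold went from 57.6% to 38.6%. Differences were larger among weak signals: 35 of the 66 genes lay in the dimmest of 5 equal groups by mean level, and the SD over genes was 0.40 in that group and 0.22 in the brightest. Of the 38 higher genes 20 read below the floor in total RNA, and of the 28 lower genes 17 read below it in polysome RNA, so the sizes of those folds are uncertain. For 3 of them, C1qc, Wnt10a and Apcdd1, neither wild-type array reached the floor. Among the 6535 genes at or above the floor in both libraries, 29 differed by 2-fold or more (0.444%), 18 of them higher (0.275%) and 11 lower (0.168%). For 16 of the 66 genes a further probe set was above the floor, 18 such probe sets in all, and each had the sign of the first, 11 of them past 2-fold.

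**Figure D1:**
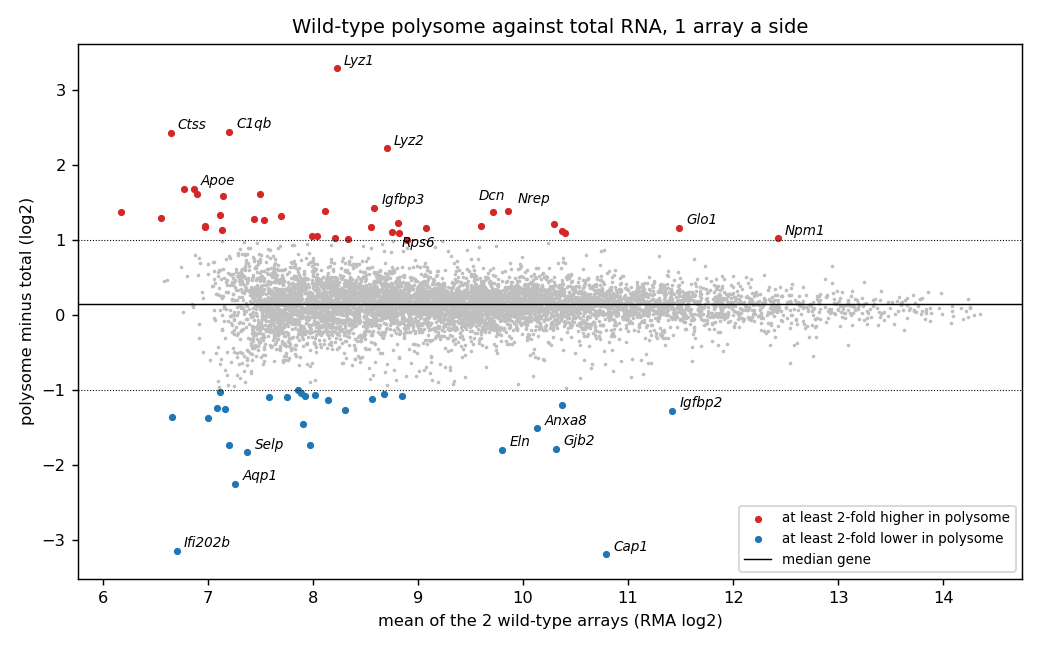
Each point is 1 of the 7179 genes, with the mean of both wild-type arrays (RMA log2) on the horizontal axis and polysome minus total (log2) on the vertical axis; red and blue points are at least 2-fold higher or lower and the solid line is the median gene at 0.14. The points spread most at low levels, where 35 of the 66 coloured genes lie, and Cap1 stands alone at high level with -3.19.

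The gene furthest to the lower side was Cap1, whose protein binds cofilin and actin monomers and speeds the recycling of actin. It read 12.39 in total and 9.20 in polysome RNA, 9.13-fold lower, and its other probe set read 11.97 and 8.75. Both libraries lay well above the floor at both probe sets. The other 30 measured genes of actin turnover had no member past 2-fold. The 31 together had a median of 0.05, and their next largest differences were Cap2, its relative, at 0.44, the Arp2/3 subunit gene Arpc1a at 0.43 and the capping protein gene Capg at 0.40. On the lower side the depolymerising factor gene Dstn came next, at -0.29.

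The next largest lower differences involved signals that lay under the floor in polysome RNA. Ifi202b, an interferon-inducible gene of the p200 family whose expression is known to differ between inbred mouse strains, read 8.27 in total and 5.14 in polysome RNA. Its relatives Ifi204 (4.64 and 4.21), Aim2 (4.58 and 4.12) and Mndal (4.97 and 4.94) were below the floor in both libraries. The water channel gene Aqp1 read 8.38 and 6.14, and the sodium pump subunit gene Atp1b1, on the same list of water and ion transport, 10.41 and 9.49. Selp, the adhesion receptor P-selectin of endothelium and platelets, read 8.29 and 6.46, and Cdh13, a cadherin held by a lipid anchor, 8.07 and 6.34. Perp, a junction protein and p53 target, read 8.63 and 7.18, the retinoid and aldehyde dehydrogenase gene Aldh1a7 read 7.69 and 6.31, and Serping1, which inhibits the first complement component, 7.79 and 6.53. Apart from Atp1b1 and the 3 relatives of Ifi202b, each gene of this paragraph was above the floor in total RNA and below it in polysome RNA.

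Other lower genes were at or above the floor in both libraries. Gjb2, the gap junction protein connexin 26, read 11.21 in total and 9.43 in polysome RNA, a difference of -1.79. Anxa8, a membrane-binding annexin, read 10.89 and 9.38 (-1.51), and its other probe set gave -1.25. Cd59a, which protects cells from the complement pore, read 10.97 and 9.77 (-1.20), with -1.14 at its other probe set. Gpc3, a cell-surface heparan sulphate proteoglycan, read 8.94 and 7.67 and the transcription factor gene Six2 8.71 and 7.58, both close to the floor in polysome RNA. The keratan sulphate sulphotransferase gene Chst1 read 9.12 and 8.01, and Uroc1, an enzyme of histidine breakdown, 9.38 and 8.31. These genes lay between -1.79 and -1.08. Of the genes that follow, only Rcan2 (9.20 in total and 8.15 in polysome RNA) reached the floor in both libraries. The others reached it in total RNA and read below it in polysome RNA. Outside the matrix and signalling genes given later, the lower side also held Zfp52 (-1.24), the semaphorin gene Sema7a (-1.10), the neuropeptide gene Hcrt (-1.09), the G protein regulators Rgs17 (-1.08) and Rgs4 (-1.06), Rcan2 (-1.05), a calcineurin regulator, the sugar transporter gene Slc2a10 (-1.04, but -0.17 at its other probe set), the platelet chemokine gene Ppbp (-1.02) and the integrin gene Itga8 (8.36 and 7.36).

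**Figure D2:**
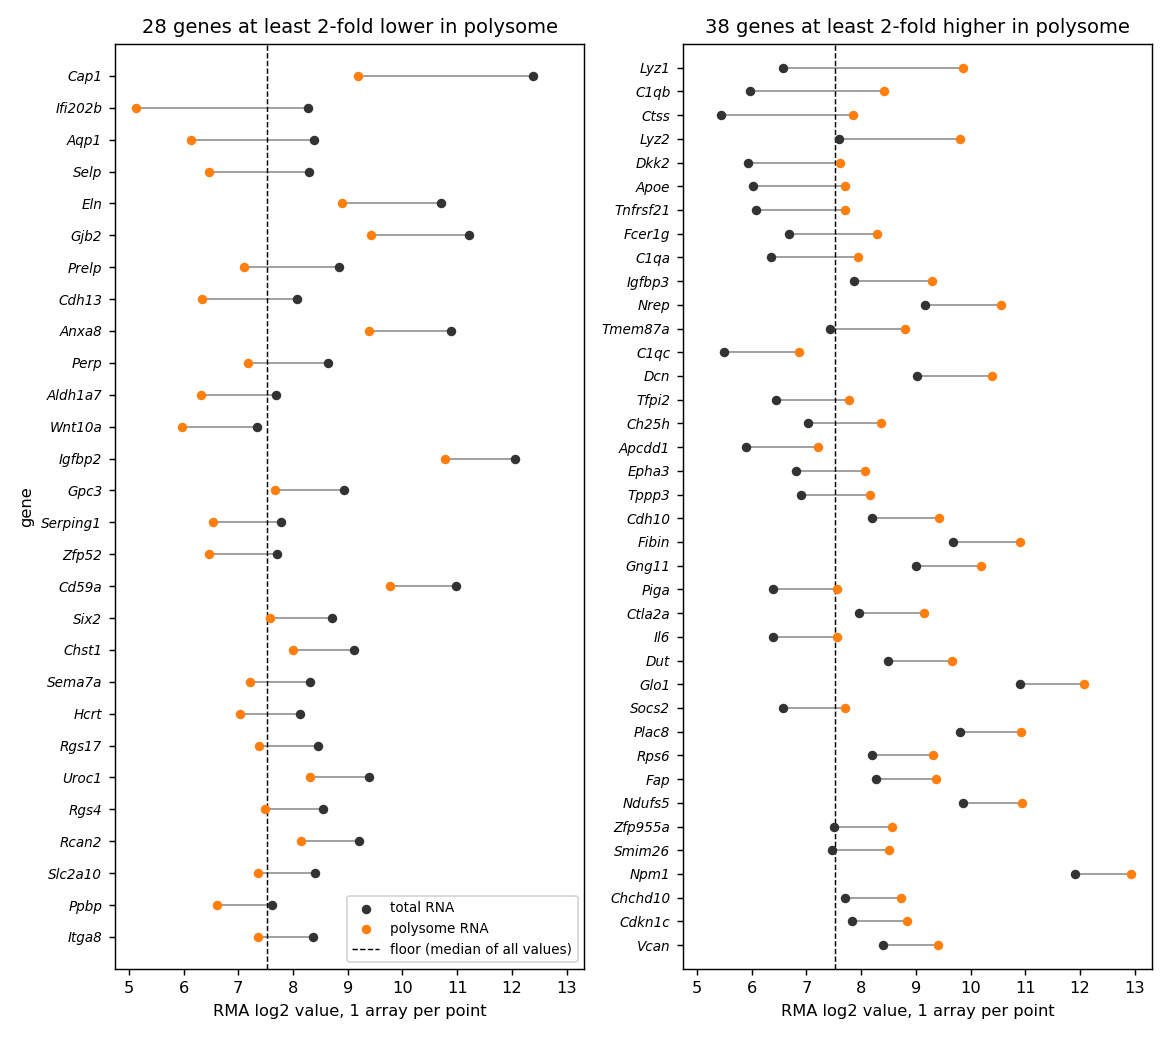
Both wild-type values (RMA log2, horizontal axis) of each gene at least 2-fold lower (left, 28 genes) or higher (right, 38 genes) in polysome RNA; 1 line per gene joins the total and the polysome value, and the dashed line is the floor at 7.53. Cap1, Eln, Gjb2, Anxa8 and Igfbp2 on the left and Nrep, Dcn, Glo1 and Npm1 on the right lie above the floor with both values.

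Several macrophage markers were at least 2-fold higher in polysome RNA, most of them from values below the floor in total RNA. Lyz2, the lysozyme of macrophages and granulocytes, read 7.59 in total and 9.82 in polysome RNA, 4.68-fold higher. The chains of complement C1q, which macrophages secrete, read 5.98 and 8.42 (C1qb), 6.35 and 7.93 (C1qa) and 5.49 and 6.86 (C1qc). The lysosomal protease gene Ctss read 5.43 and 7.86 and the Fc receptor chain gene Fcer1g 6.69 and 8.30. Apart from Lyz2, whose total value was 0.06 over the floor, each of these was below the floor in total RNA. Of the 9 measured markers 6 were at least 2-fold higher and 7 were above the median gene, against 50% of all genes by definition, and their median was 1.59. C1qa, C1qb, C1qc, Ctss, Fcer1g and Cd53 entered only through polysome libraries, so this median is not that of the whole list. With the floor set on the mean of both wild-type arrays only Csf1r (0.05), Laptm5 (0.14) and Lyz2 (2.23) were left. The median was then 0.14, the value of Laptm5, and too few markers remained for it to stand for the list.

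Over all 24 macrophage markers on the array the median was 0.37, against 0.09 over all 12393 named genes, and 6 of the 24 were at least 2-fold higher where 0.476% of all named genes were, and none was at least 2-fold lower where 0.379% were (0.855% either way). The mean level of the 24 was 6.09 in total and 6.78 in polysome RNA, with 3 of them at or above the floor in total and 7 in polysome RNA. Under the heterozygote label the mean levels were 6.22 and 6.93, with 3 and 9 at or above the floor. By the probe sets used here, markers that define the lineage differed little or were dim. The growth factor receptor gene Csf1r read 7.76 and 7.81, with 0.37 and 0.48 at other probe sets. Laptm5 read 7.62 and 7.76, with 0.27 at another probe set that reached the floor and 1.45 at one below it. Cd53 read 6.71 and 7.42. Below the floor, Pf4 was at 0.77, Tyrobp at 0.61, Adgre1, a surface receptor used to stain mouse macrophages, at 0.53, Cx3cr1 at 0.40, Cd68 at 0.39, Itgam at 0.23, Trem2 at -0.06, Cd52 at -0.09 and Ptprc, the common leukocyte antigen, at -0.21. Spi1, the myeloid transcription factor gene, read 5.81 and 6.47, below the floor in both. What part a different number of such cells in the material of the libraries has in these values was not tested.

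Genes outside that list but known from macrophages stood beside it. Apoe, the apolipoprotein, read 6.03 and 7.71. Lyz1, the second lysozyme gene, read 6.58 and 9.87, 9.78-fold higher and the largest difference of the 7179 genes, from a probe set whose name marks it as able to cross-hybridise. A further Lyz1 probe set of that kind gave 3.03 and the remaining one, below the floor, 0.32. Signal of Lyz1 and Lyz2, which are near-identical copies, may be shared between their probe sets.

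For 4 macrophage markers, chosen because they hold a match to a short motif, the sequence before the start is given. The letters searched were GAGGAA on either strand, the core bound by the PU.1 factor that Spi1 encodes, in the 250 bases before and 50 bases after each start in RefSeq, build GRCm38.p6. It was present for 13 of the 18 macrophage markers with a promoter in the table, and for 31.3% of all 27025 genes there. Each line below shows 60 bases upstream of the start, in the direction of the gene, with the match in capitals as it reads on that strand.
C1qb: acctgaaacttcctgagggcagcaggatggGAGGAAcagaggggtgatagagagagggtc
C1qc: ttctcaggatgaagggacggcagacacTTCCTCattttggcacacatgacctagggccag
Ctss: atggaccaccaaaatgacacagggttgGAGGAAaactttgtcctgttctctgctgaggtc
Cd53: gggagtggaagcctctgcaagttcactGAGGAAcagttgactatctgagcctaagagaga
The stretches lie at chr4:136886201-136886260, minus (C1qb), chr4:136893075-136893134, minus (C1qc), chr3:95526595-95526654, plus (Ctss) and chr3:106790156-106790215, minus (Cd53). Counted from the start, the first base of the match was at -30 in C1qb, -193 in C1qc, -164 in Ctss and -39 in Cd53. The windows of Fcer1g, Lyz2 and Lyz1, which differed more between the libraries than Cd53, held no match, which says only that these letters are not in those 300 bases as read here. A match is a description of the sequence and not a bound site.

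Markers of other cell types were looked at in the same way. Of 16 epithelial markers 5 were measured: Gjb2 and Perp were at least 2-fold lower, and the keratin gene Krt19 read 7.73 and 7.18, the tight junction gene Cldn3 was at -0.36 and the plakophilin gene Pkp1 at -0.32. Krt19 reached the floor only in total RNA, and in wild type so did Perp, which read 7.64 in heterozygote polysome RNA. The measured members therefore do not stand for the list. Over all 16 the median was -0.21, with Sfn (0.21) and Krt7 (0.31), both below the floor, above the median gene. Of 16 endothelial markers 4 were measured, Selp and Kdr only through total RNA, and over all 16 the median was -0.07. Selp was at -1.83 and the receptor gene Kdr at -0.54. The receptor gene Flt1 was at 0.64, and at 1.58 and 1.65 at its other probe sets, while Egfl7 was at -0.10 but at 0.47 and 0.49 at further probe sets that reached the floor. Smooth muscle and contractile markers had 12 measured members and a median of 0.12, none past 2-fold. The cartilage collagen gene Col2a1 read 10.96 in total and 10.12 in polysome RNA. What part the composition of the cultures has in these differences was not tested.

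The positional homeobox and related genes, which record where in the embryo a fibroblast came from, had 22 measured members with a median of 0.09, 10 of them above the median gene and none past 2-fold. Their extremes lay on both sides. Tbx15 read 9.29 and 8.48, Hoxa10 7.85 and 7.20 and Lhx9 was at -0.58, while Hoxc8 read 9.99 and 10.76 and Meis1 8.04 and 8.71.

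Genes of the extracellular matrix, the main product of fibroblasts, appeared at both ends. Elastin (Eln), the core of elastic fibres, read 10.70 in total and 8.90 in polysome RNA, a difference of -1.79, with -0.80 at its other probe set. Of the microfibril genes on the same list, Mfap4 read 8.25 and 9.10, Mfap2 9.39 and 9.99 and Mfap5 was at 0.51, while the fibrillin gene Fbn2 was at -0.12 and the latent TGF-beta binding protein gene Ltbp2 at -0.19. The list of 18 elastic fibre and crosslinking genes had a median of 0.07, and Eln was its only member past 2-fold. Among small leucine-rich proteoglycans, which coat collagen fibrils, decorin (Dcn) read 9.03 and 10.40 and asporin (Aspn) 10.32 and 11.17 but -0.05 apart at its other probe set, osteoglycin (Ogn) 11.42 and 11.90, but Prelp 8.83 and 7.10, with -0.68 at its other probe set. The 7 measured members had a median of 0.32 and spanned -1.73 to 1.37.

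Collagens and adhesive proteins were spread in the same manner. The 18 measured collagen genes had a median of 0.09, 7 of them above the median gene and none past 2-fold. Col18a1, the basement membrane collagen that yields endostatin, read 8.71 and 9.61, whereas the fibril-associated Col12a1 read 11.00 and 10.29 and the microfibrillar Col6a3 10.50 and 9.90. Of 23 matricellular and adhesive genes, with a median of 0.01, the large proteoglycan versican (Vcan) read 8.39 and 9.40, just past 2-fold, with 0.92 and 0.86 at its other probe sets. Thrombospondin 2 (Thbs2) read 10.89 and 11.69 and periostin (Postn) 12.61 and 13.27, while nephronectin (Npnt) read 7.80 and 7.02 and the laminin chain gene Lama5 9.43 and 8.73. The serine protease gene Fap, a surface marker of activated fibroblasts, read 8.27 and 9.36, and Tfpi2, an inhibitor of matrix-degrading serine proteases, 6.45 and 7.78. Of 20 matrix proteases and inhibitors, none past 2-fold, the gelatinase gene Mmp9 (6.99 and 7.73) and the urokinase receptor gene Plaur (10.43 and 9.86) lay furthest apart. Each of these matrix groups therefore held members well above and well below the median gene.

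Secreted signalling proteins and their binding partners made up another set at both ends. In the insulin-like growth factor system, whose binding proteins hold the ligand in the medium, Igfbp3 read 7.87 in total and 9.30 in polysome RNA. Igfbp2 read 12.06 and 10.78, 2.42-fold lower, and Igfbp4 11.44 and 10.61. The 12 measured members had a median of 0.03, with 3 above the median gene. In the Wnt pathway the antagonist gene Dkk2 read 5.93 and 7.62 and the ligand gene Wnt10a 7.34 and 5.98. The antagonist gene Dkk3 read 11.33 and 10.75, the matricellular gene Ccn5 11.43 and 10.83, and the ligand gene Wnt5a 9.45 and 9.99. The 10 measured Wnt genes had a median of -0.33, and all 27 on the array one of -0.14. Dkk2 reached the floor only in polysome RNA, and Wnt10a only in heterozygote total RNA. Apcdd1, a membrane inhibitor of Wnt signalling, read 5.90 and 7.20, below the floor in both.

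BMP and TGF-beta genes had a median of -0.06 over 19 measured members, 5 of them above the median gene and none past 2-fold. The target gene Id2 read 8.76 and 8.14 and the inhibitor gene Smad6 9.20 and 8.72, while the ligand gene Tgfb1 read 9.81 and 10.44. The 11 measured cytokine and chemokine genes had a median of 0.02, and all 27 on the array one of -0.17. Among them the interleukin gene Il6 read 6.39 and 7.56 and the chemokine gene Cxcl14 9.86 and 9.04. The 35 measured immediate early genes, whose mRNAs are short-lived, had a median of 0.01 with 14 above the median gene. Gadd45a, a stress sensor, read 8.43 and 9.28, and the nuclear receptor gene Nr4a1 10.01 and 9.50. No immediate early gene was past 2-fold.

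Further genes at least 2-fold higher were above the floor in both libraries. Nrep, a small protein of regenerating neurons and wound fibroblasts, read 9.16 and 10.56, with 1.36 at its other probe set. Glo1, which detoxifies methylglyoxal, read 10.90 and 12.07, with 1.43 and 1.28 at its other probe sets. The secreted protein gene Fibin read 9.69 and 10.90, the G protein gamma subunit gene Gng11 9.01 and 10.20, the protease inhibitor gene Ctla2a 7.97 and 9.15, the cadherin gene Cdh10 8.20 and 9.42 and Plac8 9.81 and 10.93. Cdkn1c, an imprinted inhibitor of the cell cycle, read 7.83 and 8.84. Others started under the floor in total RNA: Tnfrsf21 (6.09 and 7.71, but only 0.33 at its other probe set), the ephrin receptor gene Epha3 (6.80 and 8.08, with 1.56 and 1.42 at its others), Ch25h, which makes 25-hydroxycholesterol (7.04 and 8.36), Tmem87a (7.43 and 8.81), Tppp3 (6.90 and 8.17), the cytokine signal inhibitor gene Socs2 (6.57 and 7.70) and Piga, the first enzyme of lipid anchor synthesis (6.39 and 7.57). Zfp955a (1.06) and Smim26 (1.05) complete that side with the replication, mitochondrial and ribosomal genes below and the matrix and signalling genes above.

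The translation machinery itself was near the median gene. The median was 0.14 for the 22 measured ribosomal proteins of the small subunit, 11 of them above the median gene, and 0.10 for the 23 of the large subunit, 9 of them above it. Rps6, the small-subunit protein phosphorylated downstream of mTOR, was the only one past 2-fold, reading 8.20 and 9.31. The rest lay between -0.22 (Rpl12, 8.42 and 8.20) and 0.44 (Rps9, 13.03 and 13.47, but -0.20 at another probe set above the floor). For the 49 initiation and elongation factor genes the median was 0.16, with 28 above the median gene. They ran from Eif4g2, a factor for cap-independent initiation, at -0.29 to Eif4b and Eif2b5 at 0.49. Other probe sets above the floor gave -0.05 and -0.03 for Eif4g2 and 0.21 and 0.24 for Eif4b. The 66 ribosome biogenesis genes had a median of 0.18, with 40 above the median gene. Npm1 was their only member past 2-fold, with 11.91 in total and 12.93 in polysome RNA and 11.96 and 12.73, a difference of 0.77, at its other probe set. Like Rps6 it lost the 2-fold call under 6 of the 8 alternatives, some of which lower every gene by the same amount. The nucleolar genes Mybbp1a (9.89 and 10.41) and Nolc1 (8.80 and 9.31) came next.

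Pyrimidine starts were looked at over all genes with a promoter in the table, 5862 of the 7179 (81.7%). A start was counted where the first base is C and at least 4 more bases of C or T follow without a break, which held for 184 genes (3.14%; 3.01% of all genes in the table). The median difference was 0.18 for these 184 and 0.15 for the other 5678, with interquartile ranges of 0.04 to 0.27 and 0.01 to 0.28. Of the 184, 105 (57.1%) were above the median gene, against 50.1% of the others. Only Cap1 and Rps6 among them were past 2-fold, 1 on each side. By this strict rule at the annotated base, 5 of 19 small-subunit and 4 of 21 large-subunit genes had such a start, so it misses many that are known for it.

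Other lists linked to regulated initiation, or to the response to it, lay somewhat above the median gene. The ATF4 response to amino acid shortage, which is switched on when initiation is restrained, had 37 measured members with a median of 0.28. Of these, 31 were above the median gene and none was past 2-fold. Its genes are grouped by that response and not by a control of their own initiation. Ddit3, a stress transcription factor, read 10.19 and 11.00, the transsulphuration enzyme gene Cth 8.92 and 9.71, the tRNA exporter gene Xpot 10.03 and 10.74 and the serine synthesis gene Psph 9.30 and 9.93. The 19 measured mRNAs known for regulatory upstream reading frames, a list that shares genes with the ATF4 list, had a median of 0.26 with 13 above the median gene. Atf4 itself read 11.82 and 12.08, but gave -0.43 at another probe set above the floor, Atf5 read 11.66 and 12.05 and the choline kinase gene Chka 8.35 and 8.81. Cebpb read 10.76 and 10.77, with 0.57 at its other probe set, and the oxidative stress gene Srxn1 9.50 and 9.49, with -0.24 to 0.28 at its others. Among 5 measured genes with an iron responsive element, the iron exporter gene Slc40a1 read 6.96 and 7.78. The ferritin gene Fth1 was at 0.04 and the transferrin receptor gene Tfrc at 0.22. These genes were not sorted by where in the mRNA the element lies.

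Nuclear and non-coding RNAs lay on both sides of the median gene. The 10 that were measured had a median of 0.14, 5 of them above the median gene. Neat1, the scaffold of nuclear paraspeckles, read 11.00 and 10.53, and Malat1, held in nuclear speckles, 12.77 and 12.60. Among hosts of small nucleolar RNAs, Gas5 read 11.25 and 11.75 and Snhg5 8.91 and 9.43, Snhg8 was at 0.28 and Snhg6 at 0.09. Snhg1 was at 0.50, with -0.17 to 0.55 at its other probe sets. The 3 measured replication histone genes had a median of 0.18, and the 16 selenoprotein genes, whose stop codon is read as selenocysteine, 0.12, with Selenop at 0.60.

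**Figure D3:**
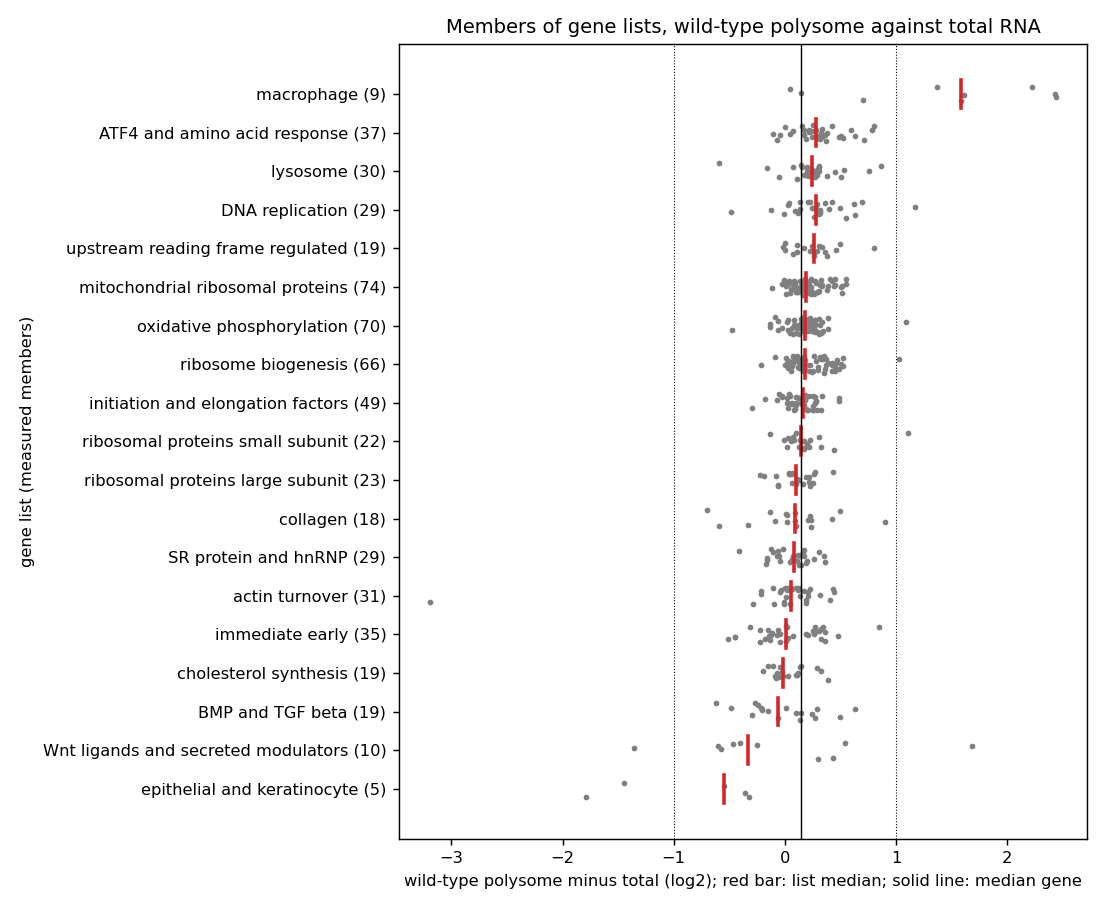
Polysome minus total in wild type (log2, horizontal axis) for the measured members of selected gene lists (vertical axis, number of members in brackets); grey points are genes, red bars list medians, the solid line the median gene at 0.14 and dotted lines 2-fold. The macrophage bar, at 1.59, is drawn over 9 members that entered largely through polysome RNA and would lie at 0.37 over all 24 markers; matrix and growth factor lists have members far out on both sides.

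Organelle and housekeeping groups differed by small amounts. Lysosomal genes had a median of 0.25 with 25 of 30 above the median gene and none past 2-fold; the membrane protein gene Scarb2 read 10.34 and 11.21 and the mannosidase gene Manba 7.12 and 7.88, and the galactosidase gene Gla 8.69 and 8.10, although its other probe set gave 0.52. For mitochondrial ribosomal proteins the median was 0.19, with 49 of 74 above the median gene, and respiratory chain genes 0.18, with 45 of 70. Ndufs5, a complex I subunit, read 9.86 and 10.95 and was the only one of either group past 2-fold, while cytochrome c (Cycs) read 12.14 and 11.66, but gave 0.07 and 0.28 at its other probe sets. Chchd10, a protein of mitochondrial cristae, read 7.70 and 8.72. Proteasome genes had a median of 0.16, with 20 of 32 above the median gene.

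Cell cycle and metabolic groups lay on both sides of the median gene. DNA replication genes had a median of 0.28, with 20 of 29 above the median gene: the dUTPase gene Dut read 8.49 and 9.66, the licensing inhibitor gene Gmnn 7.29 and 7.99 and its target Cdt1 8.20 and 8.83, while Mcm10 read 7.62 and 7.14. Mitosis genes had a median of 0.11, with 16 of 36 above the median gene. Cholesterol synthesis genes had a median of -0.02 and 3 of 19 above the median gene, from Lss, which makes lanosterol, at -0.20 to the isomerase gene Ebp at 0.39. SR protein and hnRNP genes, which act in splicing, had a median of 0.08 with 9 of 29 above the median gene, and Hnrnpr lay furthest from it, at 10.83 and 10.42, by a probe set that can cross-hybridise, with -0.20 and 0.31 at its others. The glycolysis genes had a median of 0.13, and Pfkfb3, which sets the pace of glycolysis, read 7.22 and 7.97. The retinoid-binding protein gene Crabp1 read 8.18 and 9.13.

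The libraries labelled heterozygote share no array with the wild-type pair, and their values stand beside it. Their median gene was 0.07 higher in polysome RNA, and 55 genes passed 2-fold (0.766%), 29 higher (0.404%) and 26 lower (0.362%). All 66 wild-type genes had the same sign there, and 23 of the 38 higher and 21 of the 28 lower were past 2-fold there too. Over all measured genes 75.6% were above 0 in wild type, and the share with the same sign in both pairs is not given here. The wild-type difference was the larger for 30 of the 38 and 20 of the 28; these genes were chosen for their wild-type size. Cap1 read 12.24 and 9.56 under the heterozygote label and Lyz2 8.20 and 10.46. Handling that differed between the RNA labels would enter both pairs alike, and whether it did was not tested.

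The wild-type difference minus the heterozygote one reached 2-fold for 0 of the 7179 genes (0%), and 1.5-fold for 22, 10 of them higher and 12 lower under the wild-type label. Its SD over genes was 0.17 and its range -0.88 to 0.90. Piga was at 1.18 under wild type and 0.29 under heterozygote, Cdkn2a, the locus of the p16 and ARF tumour suppressors, at 0.93 (7.71 and 8.64) and 0.07 (8.65 and 8.72), and Hyi at -0.44 and -1.17. Opposite signs were seen for Kpnb1, the import receptor importin beta (-0.51 and 0.36), Csdc2 (-0.45 and 0.42), Nnt (-0.16 and 0.69), Echdc3 (-0.56 and 0.18) and Phtf2 (0.45 and -0.28). The probe sets of Kpnb1, Csdc2 and Nnt used here are of the kind that can cross-hybridise, and the 3 other probe sets of Kpnb1 gave between -0.00 and 0.08 under wild type. The other Csdc2 probe sets, below the floor, gave 0.04 and 0.57 under wild type and 0.22 and 0.56 under heterozygote. Mitochondrial groups had fewer members above the median gene under the heterozygote label, 29 of 74 and 25 of 70, and SR and hnRNP genes more, 21 of 29; these differences were not tested.

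**Figure D4:**
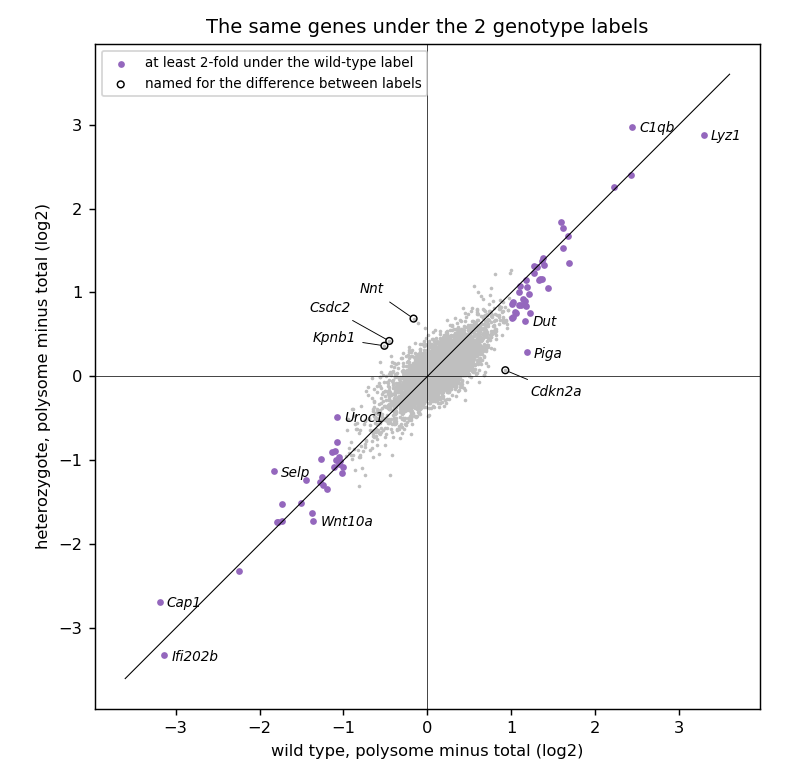
Polysome minus total (log2) under the wild-type label (horizontal axis) and the heterozygote label (vertical axis) for each of the 7179 genes; purple points are at least 2-fold under the wild-type label, circled genes are 4 of those named for a difference between the labels, and the diagonal marks equal values. All 66 purple points lie in the quadrants of equal sign.

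Control probe sets of the array show how the 2 libraries compare outside the fibroblast genes. The 18 probe sets for bioB, bioC, bioD and cre, which the maker's standard procedure adds in equal amounts at hybridisation, were all above 0, from 0.10 to 0.61 with a median of 0.38, and 17 of them were above the median gene. Whether equal amounts were added to these arrays is not stated in the labels. Under the heterozygote label their median was 0.26. Taken relative to this median the median fibroblast gene would be at -0.24 instead of 0.14. Probe sets along the housekeeping mRNAs differed little by position, with Gapdh at 0.07, 0.17 and 0.15 and beta-actin at -0.03, 0.01 and 0.02 from the downstream to the upstream end. The 18S ribosomal RNA probe sets were at -0.14, 0.28 and 0.15, and that of the B1 repeat at 13.43 and 13.47.

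**Figure D5:**
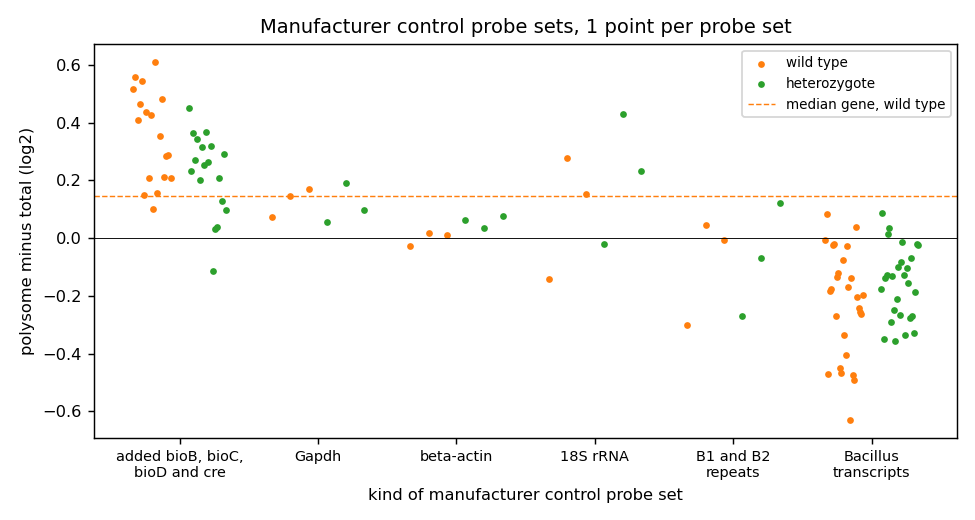
Polysome minus total (log2, vertical axis) for manufacturer control probe sets, by kind (horizontal axis), in wild type (orange) and heterozygote (green); each point is 1 probe set and the dashed line is the wild-type median gene at 0.14. The 18 added controls lie between 0.10 and 0.61 in wild type, and the 27 Bacillus probe sets, which read near the lowest levels, between -0.63 and 0.08.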

How the data were processed

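The authors deposited log2 values of 22690 probe sets on each of 4 Affymetrix arrays; per the submitters' processing notes they were made with R 3.4.3, affy 1.56.0 and RMA, which corrects background, normalises between arrays and summarises probes. Per the labels' protocols, RNA from sucrose fractions was copied into cDNA, amplified by T7 RNA polymerase and biotin-labelled. Settings and genome build are not given in the sources used here, and scanner files were not used here. The number of arrays limits the precision.

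The annotation gave 20393 probe sets 1 gene symbol, 691 several and 1555 none; 64 are manufacturer controls. Differences were polysome minus total, counted at 2-fold or more. Named genes are the 15 largest each way (without genes where a further probe set above the floor had the other sign), the 10 largest each way with both arrays above the floor, list members past 2-fold or with the largest differences, the 4 largest each way between genotype labels, and Npm1. Other genes past 2-fold were named in addition, and lineage markers, Atf4, Cebpb, Srxn1, Fth1, Tfrc, Snhg6, Snhg8, Fbn2, Ltbp2, Sfn and Krt7 after their values were seen. Members, lists and tests were chosen with earlier results of these data known. Alternatives covered probe set choice, floor, scaling and threshold. The calculation, tested on simulated data, used Python 3.11.15, pandas 2.3.3 and statsmodels 0.14.6. Protein lengths were not analysed here.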

Additional observations from a re-analysis of the deposited data

Results flagged for a closer look

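The polysome minus total differences of 5 genes had opposite signs under the wild-type and heterozygote labels, 1 array a side. They were -0.45 and 0.42 for Csdc2, -0.56 and 0.18 for Echdc3, -0.51 and 0.36 for Kpnb1, -0.16 and 0.69 for Nnt, and 0.45 and -0.28 for Phtf2, and the difference between the labels was not tested. At other probe sets Kpnb1 gave 0.07 to 0.19 under the heterozygote label and Nnt gave -0.33 and 0.20. The other Csdc2 probe sets, below the floor, had the same sign under both labels.

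Probe sets for the added bacterial and phage control transcripts, which the comparison of genes does not use, had a median of 0.38 in wild type, with 18 of 18 above 0.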

How the results depend on the processing

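Of 38 genes higher and 28 lower, the counts became 59 and 47 with no floor, 16 and 9 with the floor at the 75th percentile, 262 and 112 at 1.5-fold and 9 and 8 at 3-fold. With the floor on the mean of both wild-type arrays 24 were higher. Relative to the median gene 43 were lower, and after subtraction of a loess trend on level 24 were higher and 46 lower. Relative to the added control transcripts, an alternative chosen after seeing the data, 12 were higher and 95 lower. The share of higher genes was then 11.2%, and 34.3% with the loess trend. Quantile normalisation gave 28 and 42, and centred arrays 28 and 39. Across the 8 alternatives that change the values, 31 of the 66 genes stayed past 2-fold in each, and none of the 66 changed sign. Among the 31 were Cap1, Eln, Gjb2, Igfbp2, Igfbp3, Lyz2 and C1qb. Centring, and values relative to the median gene or the added controls, lower every gene by the same amount. Under those alternatives no sign of the 66 could change, and the lower genes could only keep the call. Of 44 lists with 3 or more measured genes, 27 kept their side of the median gene under the alternatives run and 17 did not, the small and large ribosomal subunits, collagens and mitosis genes among the latter. The macrophage median was 0.14 with the floor on the mean of both arrays, which left Csf1r, Laptm5 and Lyz2. With the stricter floor it was 2.23, the value of Lyz2 as the only marker left. Relative to the added controls the macrophage median was 1.21, where most other list medians were below 0. The cause of these changes was not tested. No paired analysis was possible because each group has 1 array and the labels carry no replicate numbers. Signal over background was judged from the level alone, as no detection calls were analysed here.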

Other observations

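The 1555 probe sets that the annotation does not list included 11 that were higher and 10 that were lower in wild-type polysome RNA by 2-fold or more; their genes are not named here.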
